A study of Mus musculus with 4 samples.

Results

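The genes described here are 10 genes of mineralization and bone matrix, taken by symbol from the 24346 gene symbols of the deposited files. They comprise 4 genes of the SIBLING family of secreted acidic phosphoproteins (Spp1, Dmp1, Ibsp and Mepe), the matrix protein genes Mgp and Bglap, and the enzyme genes Alpl, Enpp1, Phex and Smpd3. All 10 symbols were present. Their RNA was measured by sequencing in primary cultures from the mouse inner ear, in 2 libraries from vestibular cells and 2 from cochlear cells. Neither genotype, strain, age, culture time nor any treatment of the animals is given in the sources used here, and nothing says whether the 2 libraries of a group came from separate cultures, so p-values measure only the spread between these libraries.

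Mineral in bone forms where phosphate is released and pyrophosphate, a potent inhibitor of crystal growth, is removed. ENPP1 makes pyrophosphate from extracellular ATP, and ALPL, the tissue-nonspecific alkaline phosphatase, hydrolyses it to phosphate. SIBLING proteins bind calcium, collagen and integrins and can promote or restrain crystal growth according to how they are cut and phosphorylated, and PHEX is an endopeptidase known to degrade SIBLING-derived inhibitory peptides. MGP, which needs vitamin K-dependent carboxylation, keeps soft tissue and cartilage from calcifying. In the inner ear, bone surrounds the membranous labyrinth, while the otoconia of the vestibular organs are built of calcium carbonate on a protein scaffold.

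The values are FPKM. They divide fragments by transcript length and by the size of the library, so levels can be compared between genes. In each library, low values of long genes with 1 annotated transcript lay mostly near whole multiples of 1 step. Between 73.6% and 77.1% of them were within 10% of a step's width from a whole number of fragments, for up to 3 fragments. That step corresponds to about 8690000 to 10100000 fragments per library, and fragment numbers given below are estimates from it and from the longest coding transcript. Even Rpl26, which encodes a ribosomal protein, has a value of 0 in each of the 4 libraries, so a gene with an exact 0 is described only as listed at 0.

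The 4 SIBLING members lie side by side on chromosome 5 (mm10, plus strand), within 238.4 kb from 104202613 to 104441050, in the order Dmp1, Ibsp, Mepe, Spp1. Their promoters are shown because these neighbours spanned the full range of levels in the same libraries, from listed at 0 to among the highest of all genes. Each stretch holds 250 bases before and 50 after an annotated RefSeq start (GRCm38.p6, plus strand, 5′ to 3′), namely chr5:104202367-104202666 for Dmp1, chr5:104299037-104299336 for Ibsp, chr5:104325079-104325378 for Mepe and chr5:104434861-104435160 for Spp1. Capitals mark the core letters bound by RUNX factors, TGTGGT on either strand (ACCACA as printed when on the other strand).
Dmp1: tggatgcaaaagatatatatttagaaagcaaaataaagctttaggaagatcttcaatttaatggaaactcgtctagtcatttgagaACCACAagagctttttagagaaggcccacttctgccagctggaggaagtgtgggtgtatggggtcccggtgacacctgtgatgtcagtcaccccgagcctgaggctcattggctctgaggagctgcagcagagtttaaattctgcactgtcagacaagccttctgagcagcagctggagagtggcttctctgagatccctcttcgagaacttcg
Ibsp: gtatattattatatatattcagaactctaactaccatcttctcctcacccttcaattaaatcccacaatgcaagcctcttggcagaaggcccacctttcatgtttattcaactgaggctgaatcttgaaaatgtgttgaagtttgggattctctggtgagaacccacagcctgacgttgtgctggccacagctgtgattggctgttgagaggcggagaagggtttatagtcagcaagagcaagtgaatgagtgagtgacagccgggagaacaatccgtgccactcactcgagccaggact
Mepe: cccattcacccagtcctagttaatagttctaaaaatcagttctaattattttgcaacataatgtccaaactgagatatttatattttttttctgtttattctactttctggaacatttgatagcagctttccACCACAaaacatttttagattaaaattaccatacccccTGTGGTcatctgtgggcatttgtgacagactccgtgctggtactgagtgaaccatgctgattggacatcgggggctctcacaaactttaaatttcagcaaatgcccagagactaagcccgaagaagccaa
Spp1: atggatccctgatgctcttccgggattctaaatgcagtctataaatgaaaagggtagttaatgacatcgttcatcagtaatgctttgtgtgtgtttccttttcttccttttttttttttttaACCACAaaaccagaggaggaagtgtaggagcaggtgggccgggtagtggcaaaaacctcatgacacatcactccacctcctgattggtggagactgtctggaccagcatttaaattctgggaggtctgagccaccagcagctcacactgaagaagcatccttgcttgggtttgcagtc

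The RUNX letters occurred in the printed Dmp1, Mepe and Spp1 promoters and not in that of Ibsp. Dmp1 and Spp1 each have a second RefSeq start, and those promoters did not hold the letters. Of the 10 members, 8 had a promoter in the RefSeq table (11 promoters), and 5 of the 11 held the letters, those of Bglap and Enpp1 being the other two. Over all 32851 promoters of the same length, 16.8% held them. The AP-1 letters TGANTCA, which read the same on both strands, occurred in 0 of the 11 and in 7.81% of all promoters. A match to these letters is a description of the sequence only.

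Spp1 encodes osteopontin, a SIBLING that also acts as a cytokine in many soft tissues. Vestibular libraries 1 and 2 gave 4095 and 2598 FPKM. Cochlear libraries 1 and 2 gave 5377 and 4459. It was the 9th and 14th highest gene of the vestibular libraries and the 3rd and 2nd highest of the cochlear ones. Both cochlear values lay above both vestibular values, but vestibular 1 was close to cochlear 2. The log2 difference, vestibular minus cochlear on the log2(FPKM + 1) scale used throughout, was -0.59 (SE 0.34, 95% interval -1.55 to 0.38), and the adjusted p was 0.426 (limma over the 13200 genes with a mean of at least 1 FPKM, Benjamini-Hochberg adjustment). A gap of this size was not separated from the spread within the groups, which reached 1.58-fold between the vestibular libraries. For this and every later value, fewer cells of a type and less RNA per cell cannot be told apart in bulk cultures.

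Dmp1 encodes dentin matrix protein 1, a SIBLING of osteocytes and odontoblasts. Vestibular 1 reached 171 FPKM and vestibular 2 reached 80.6, against 15.0 and 15.0 in the cochlear pair, so its groups did not overlap. The cochlear values were nearly equal, while vestibular 1 was 2.13-fold above vestibular 2. Group means were 126 ± 64.2 and 15.0 ± 0.00721 FPKM (SD, n = 2 each), an 8.39-fold ratio of means. The log2 difference was 2.89 (SE 0.41, 95% interval 1.73 to 4.05), and 1.27% of all genes tested had a larger absolute difference. Limma gave an unadjusted p of 0.00273 and an adjusted p of 0.122, so Dmp1 did not pass the threshold of 0.05. The difference stood at 2.35 without vestibular 1 and at 3.43 without vestibular 2.

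Ibsp, the bone sialoprotein gene of osteoblasts, had 2.76 FPKM in vestibular 1, 0.808 in vestibular 2 and 0.423 in cochlear 1, and was listed at 0 in cochlear 2. These values correspond to about 50, 16 and 9 fragments, and both vestibular values lay above both cochlear ones. Its mean of 0.997 FPKM over the 4 libraries was just short of the filter of 1 used for testing. Mepe, a SIBLING gene of osteocytes, was listed at 0 in all 4 libraries.

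Of the neighbouring genes, Dspp, the dentin sialophosphoprotein gene and itself a SIBLING, precedes Dmp1 and reached at most 0.0892 FPKM. Pkd2, the polycystin-2 channel gene that follows Spp1, had 59.8 and 79.8 FPKM in vestibular cultures, against 45.9 and 52.5 in cochlear ones. Within this stretch of 6 genes, Dmp1 and Spp1 thus stood in opposite order between the groups. Between them, Ibsp reached at most 2.76 FPKM, and Mepe was listed at 0. Dmp1 amounted to 0.0419 and 0.0310 times Spp1 in the vestibular pair and to 0.00279 and 0.00337 times in the cochlear pair, a ratio chosen after the values were seen.

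**Figure D1:**
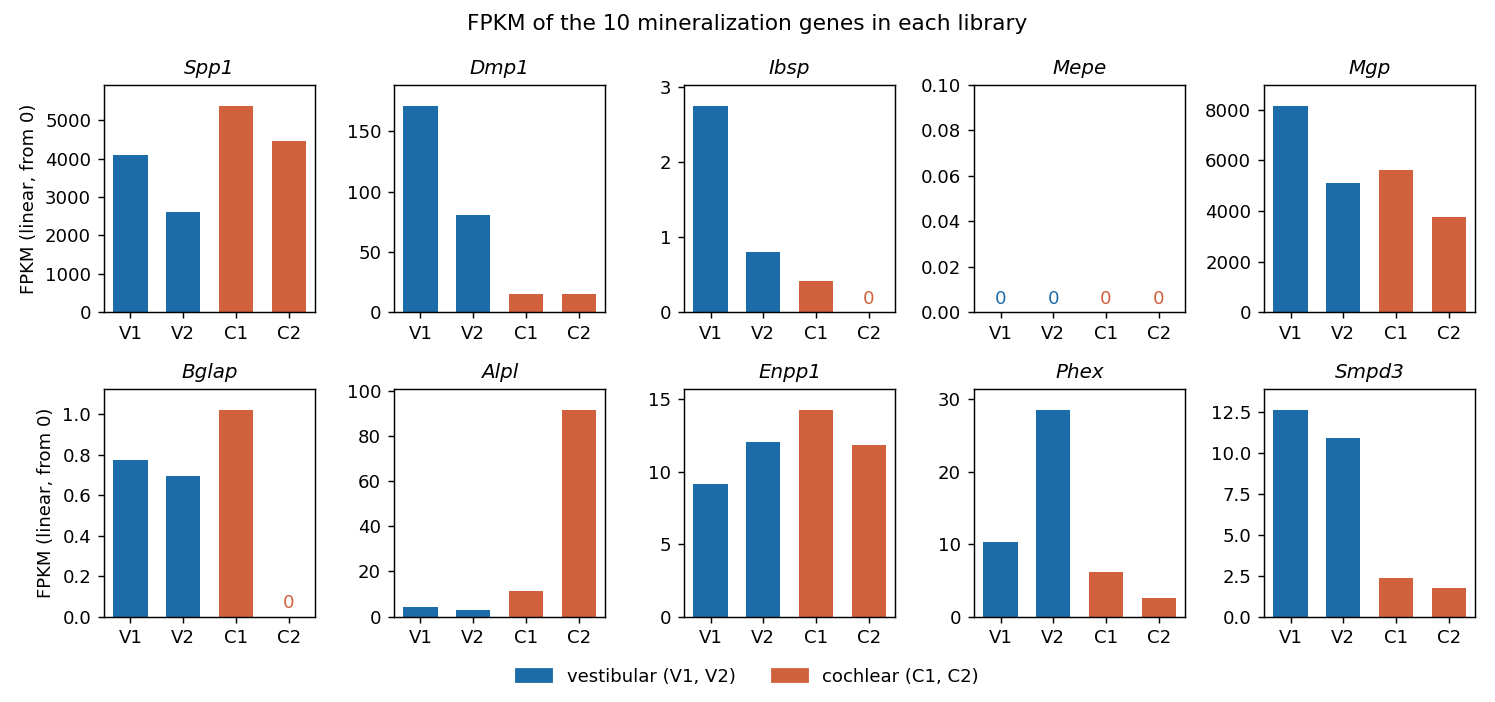
FPKM of each of the 10 genes (linear axis from 0, a separate scale for each gene) in the vestibular libraries (V1, V2, blue) and the cochlear libraries (C1, C2, orange), 1 bar per library, with "0" where a gene is listed at 0. Dmp1, Phex, Smpd3 and, at low values, Ibsp stand higher in both vestibular libraries, Alpl is highest in C2 at 91.7 FPKM, and Mepe is listed at 0 throughout.

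The other members lie on other chromosomes (GENCODE M21, minus strand): Mgp on 6 at 136872435 to 136875823, Bglap on 3 at 88383501 to 88384464, Alpl on 4 at 137741733 to 137796384, Enpp1 on 10 at 24637914 to 24712159, Phex on X at 157162075 to 157415312 and Smpd3 on 8, given below. Mgp was the most abundant member in 3 libraries. Its level was 8158 FPKM in vestibular 1 and 5104 in vestibular 2, then 5631 in cochlear 1 and 3752 in cochlear 2. In cochlear 2 Spp1 exceeded it. The groups overlapped, since cochlear 1 lay above vestibular 2, and the log2 difference was 0.49 (SE 0.40, 95% interval -0.67 to 1.65; limma adjusted p 0.544). Mgp and Spp1 together made up 2.36% and 1.50% of all FPKM in the vestibular pair, and 2.13% and 1.71% in the cochlear pair.

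Within each library Mgp was set against Spp1, a ratio chosen after the values were seen. Mgp was 1.99 and 1.96 times Spp1 in the vestibular pair and 1.05 and 0.841 times Spp1 in the cochlear pair. This ratio does not depend on scaling between libraries. Its groups did not overlap, and a 2-sided exact permutation test of 2 libraries against 2 cannot give a p below 0.333.

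Bglap encodes osteocalcin, the Gla protein of mature osteoblasts. Its level was 0.773 FPKM in vestibular 1, 0.695 in vestibular 2 and 1.02 in cochlear 1, and it was listed at 0 in cochlear 2, about 3 to 4 fragments where it was above 0. The near-identical neighbouring copy Bglap2 had 1.19 and 3.58 FPKM in the vestibular pair, 0.351 in cochlear 1 and 0 in cochlear 2, and the related Bglap3 had 0 in both vestibular libraries, 0.182 in cochlear 1 and 0.356 in cochlear 2. The counting could split fragments between these copies, so the level of each is uncertain.

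Smpd3 encodes a neutral sphingomyelinase whose loss impairs bone and cartilage mineralization. Vestibular libraries 1 and 2 had 12.6 and 10.9 FPKM of it, against 2.34 and 1.75 for cochlear libraries 1 and 2, about 542 to 565 against 91 to 117 fragments. The groups did not overlap, and the spread within them was 1.15-fold and 1.33-fold. The ratio of means was 5.77, and the log2 difference 2.07 (SE 0.18, 95% interval 1.56 to 2.58). Limma gave an unadjusted p of 0.000465 and an adjusted p of 0.0852, the lowest of any member and short of the threshold. Over the alternatives its adjusted p ran from 0.0823 to 0.485. Smpd3 lies on chromosome 8 at 106252548 to 106337988 on the minus strand, and 247 nt at its end are shared with Prmt7 on the other strand. Whether counting used strand is not given in the sources used here; Prmt7, a protein arginine methyltransferase gene, ranged from 6.92 to 9.16 FPKM over the 4 libraries.

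Phex, the endopeptidase gene, had 10.4 FPKM in vestibular 1 and 28.6 in vestibular 2. Cochlear 1 had 6.16 and cochlear 2 had 2.52. The groups did not overlap, but vestibular 2 was 2.76-fold above vestibular 1, and cochlear 1 was 2.45-fold above cochlear 2. The log2 difference was 1.87 (SE 0.64, 95% interval 0.03 to 3.70), with limma's unadjusted p at 0.0475 and adjusted p at 0.270. It stood at 1.18 without vestibular 2 (unadjusted limma p 0.146) and at 2.56 without vestibular 1. Phex and Dmp1 thus both stood higher in the vestibular libraries, with their highest values in different ones.

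Alpl showed the reverse order. Both vestibular libraries were low, at 4.20 and 3.05 FPKM, with 11.4 in cochlear 1 and 91.7 in cochlear 2. Both cochlear values lay above both vestibular ones, and cochlear 2 was 8.02-fold above cochlear 1, at about 2325 against 282 fragments. The log2 difference was -2.89 (SE 1.08, 95% interval -5.97 to 0.20; limma unadjusted p 0.0597, adjusted p 0.290). It was -1.44 without cochlear 2, with an unadjusted limma p of 0.0156 and an adjusted p of 0.562. It was -4.34 without cochlear 1, with 0.000637 and 0.118. The size of the difference thus rested on which cochlear library was used.

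Enpp1 varied least of the members tested, with 9.17 and 12.0 FPKM in vestibular cultures, against 14.3 and 11.8 in cochlear ones. Its groups overlapped, and the log2 difference was -0.28 (SE 0.19, 95% interval -0.83 to 0.26; limma adjusted p 0.478). The ratio of Alpl to Enpp1, the enzymes that remove and make pyrophosphate, was also chosen after the values were seen. It was 0.458 in vestibular 1, 0.254 in vestibular 2, 0.802 in cochlear 1 and 7.74 in cochlear 2. Alpl exceeded Enpp1 only in cochlear 2, among these 4 libraries.

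**Figure D2:**
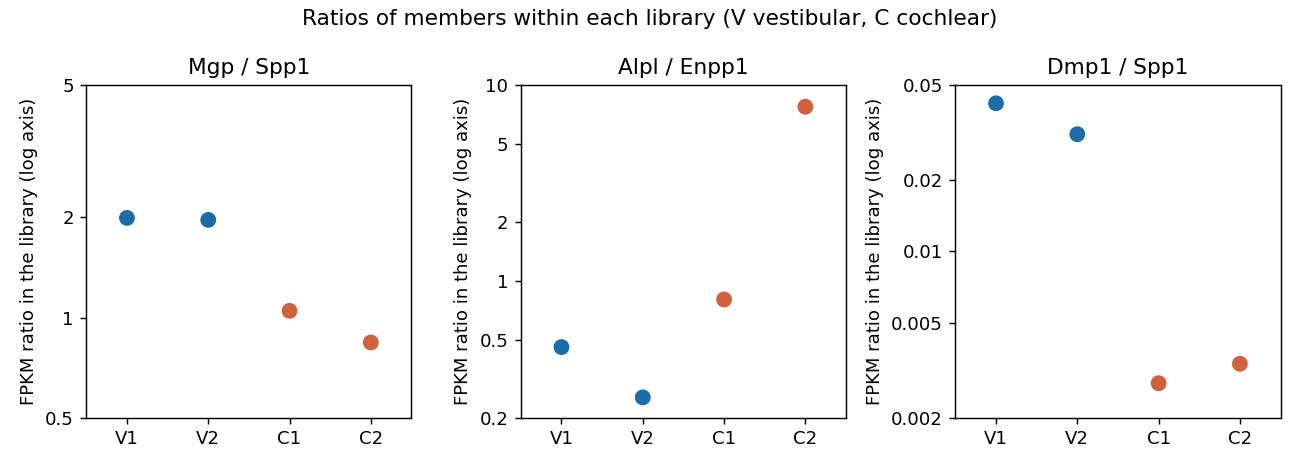
Ratios of FPKM between members within each library (log axes), 1 point per library, for Mgp over Spp1, Alpl over Enpp1 and Dmp1 over Spp1. Mgp over Spp1 is 1.99 and 1.96 in V1 and V2 and 1.05 and 0.841 in C1 and C2, and Alpl over Enpp1 stands at 7.74 in C2 alone.

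Of the 10 members, 7 had a mean of at least 1 FPKM over the 4 libraries and were tested; Ibsp, Mepe and Bglap were not. The 7 also had a mean above 1 FPKM in each group. Limma called 0 of the 7 at an adjusted p of 0.05, where 4 of 13200 genes (0.0303%) were called in all. At an unadjusted p under 0.05, 3 members (Dmp1, Phex and Smpd3) were higher in vestibular cultures, against 7.61% of all genes, and 0 were higher in cochlear cultures, against 10.6%. The groups of values did not overlap in 5 of the 7. Of these 5, Dmp1, Phex and Smpd3 were higher in the vestibular libraries, which 26.9% of all genes were, and Spp1 and Alpl were higher in the cochlear libraries, which 28.4% were. The median absolute log2 difference was 1.87 over the 7 members and 0.25 over all genes tested. The median difference was 0.49 against 0.01. The members were chosen with earlier results of these data known, so these counts and medians only describe them.

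**Figure D3:**
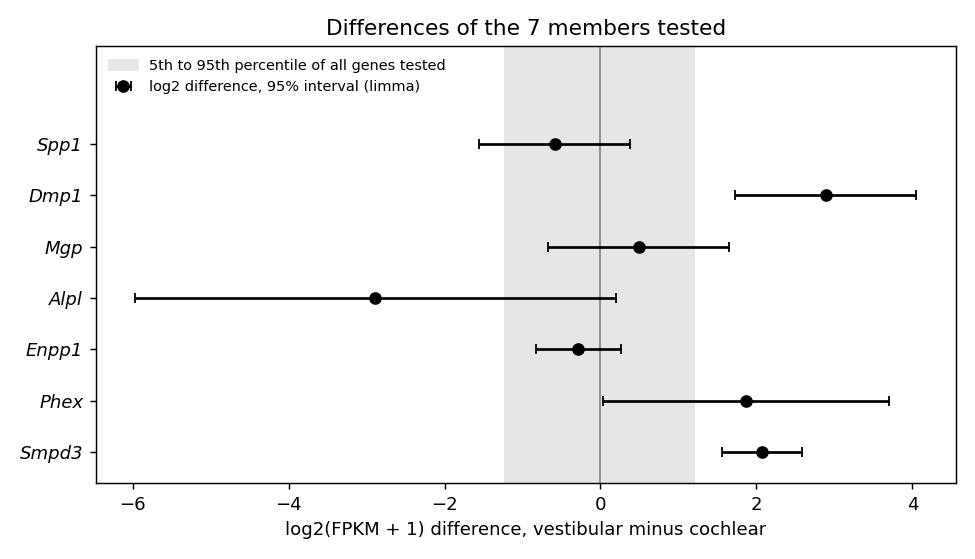
Log2(FPKM + 1) difference, vestibular minus cochlear, of the 7 members tested, with limma's 95% interval as the bar; the grey band spans the 5th to 95th percentile of all genes tested, -1.23 to 1.20. Dmp1, Phex and Smpd3 lie to the right of the band and Alpl to its left, with the widest interval.

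For the members whose values spanned at least 1 log2 unit, the 3 genes of nearest profile were found among 7531 genes with a mean of at least 10 FPKM, by the Euclidean distance between centred log2 profiles over the 4 libraries. With 4 libraries this measure is only a description. Nearest to Dmp1 were the basement membrane gene Nid2 (distance 0.537; 104 and 70.5 against 15.2 and 12.1 FPKM), the matrilin gene Matn4 (0.538) and Adgrg2 (0.572). Nearest to Alpl were Otoa, which encodes a protein that attaches inner ear gels to the epithelium (0.850; 9.40 and 3.61 against 29.0 and 129 FPKM), the serpin gene Serpinb1a (0.873) and the haptoglobin gene Hp (1.21). Phex lay nearest to the WNT ligand gene Wnt16 (0.125; 18.7 and 50.2 against 10.5 and 5.38 FPKM), the retinoic acid hydroxylase gene Cyp26b1 (0.291) and the metalloproteinase gene Pappa (0.321). Smpd3 lay nearest to Cbr2 (0.180), the elastic fibre gene Fbln5 (0.350) and the extracellular superoxide dismutase gene Sod3 (0.355). For Spp1 they were Cebpb, St3gal5 and Anxa2 (0.0815 to 0.103), and for Mgp Gsto1, Sh3bgrl2 and Fhl3 (0.0658 to 0.116), distances that go with the narrow range of these members.

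Genes that act with the members were taken from 5 lists holding 66 genes, 64 of them in the files and 46 tested. Limma called 0 of the 46 at an adjusted p of 0.05. At an unadjusted p under 0.05 there were 14 higher in vestibular cultures (7.61% of all genes tested were) and 1 higher in cochlear cultures (10.6%). In all, 36 of the 46 differences were above 0 and 10 below. Over all 13200 genes tested, 6788 were above 0. These shares of all genes are the background for the counts of each list below.

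Of the phosphate and pyrophosphate genes, 9 of 16 were tested, 8 with a difference above 0 (median 0.48), and 2 had an unadjusted p under 0.05. Ank, which exports ATP and pyrophosphate from the cell, had 46.2 and 108 FPKM in vestibular cultures, against 26.7 and 21.3 in cochlear ones (log2 difference 1.53, limma adjusted p 0.244). The ectonucleotidase gene Enpp3 had 5.66 and 6.68 against 4.35 and 3.91 in the same order, vestibular first, which also holds for the pairs below. Of the phosphate importer genes, Slc20a1 had 18.8 and 19.4 FPKM against 15.3 and 8.74. Slc20a2 overlapped between the groups, with 20.2 and 20.0 against 21.2 and 18.2. The renal transporter gene Slc34a1 was listed at 0 in all. Ank and Enpp1, the exporter and the synthetic enzyme genes, thus did not share an order between the groups.

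Of the enzymes and receptors of SIBLING proteins, 13 of 14 were tested, 10 with a difference above 0 (median 0.49), and 3 had an unadjusted p under 0.05. Bmp1, a protease that cuts DMP1 and procollagen, had 64.7 and 74.6 FPKM against 43.4 and 46.9 (log2 difference 0.61, limma adjusted p 0.177). The integrin subunit gene Itgb5 had 181 and 182 against 126 and 78.7, and Itga5 ran from 22.6 to 25.1 FPKM in vestibular and from 11.9 to 17.0 in cochlear cultures. Itgb1, the most abundant integrin gene of the list, overlapped between the groups, at 276 and 339 against 327 and 272. Fam20c, the kinase gene for secreted phosphoproteins, named after its values were seen, had 23.3 and 23.8 against 18.1 and 8.46. Tgm2, the transglutaminase gene whose enzyme cross-links SIBLING proteins, was also named after its values were seen. Vestibular 2 was lowest at 24.7 FPKM, and the other libraries had 84.5 to 102.

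Of the vitamin K and calcification inhibitor genes, 8 of 10 were tested, 6 with a difference above 0 (median 0.77), and 2 had an unadjusted p under 0.05. Vkorc1, which regenerates the vitamin K used to carboxylate Mgp, had 121 and 155 FPKM against 72.8 and 76.5 (log2 difference 0.87, limma adjusted p 0.162). Bglap2, described above, was the other. The Gla protein gene Gas6 had 356 and 113 against 131 and 53.8. Tnfrsf11b, which encodes osteoprotegerin, a decoy receptor that blocks osteoclast formation, ran from 243 to 654 FPKM in vestibular and from 515 to 573 in cochlear cultures. Both genes overlapped between the groups.

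Of the osteoblast and osteocyte genes, 9 of 15 were tested, 8 with a difference above 0 (median 0.97), and 5 had an unadjusted p under 0.05, each higher in the vestibular libraries. The matricellular gene Postn had 179 and 144 FPKM against 64.9 and 54.7 (log2 difference 1.41, limma adjusted p 0.112), and the parathyroid hormone receptor gene Pth1r had 12.1 and 9.74 against 5.50 and 4.66. Sparc, which encodes a collagen-binding glycoprotein, had 2235 and 5305 against 1132 and 1347. Runx2, the transcription factor gene required for osteoblasts, was low, with 5.30 and 5.79 FPKM against 3.90 and 3.30. Col1a1, the main collagen gene of bone, was named after its values were seen and ranged from 371 FPKM in vestibular 1 to 8.86 in cochlear 2. Omd, which encodes the matrix protein osteomodulin, and Pdpn, the podoplanin gene of early osteocytes and many epithelia, were also named after their values were seen. Omd had 98.7 and 39.5 FPKM against 28.4 and 8.12, and Pdpn had 105 and 89.1 against 111 and 147. Sost, of osteocytes, was listed at 0 in all libraries, and Sp7, which acts after Runx2 and was named after its values were seen, reached at most 0.544 FPKM. Genes known from osteoblasts and osteocytes thus spanned a wide range in these cultures. Ibsp, Bglap, Mepe, Sp7 and Sost had means under 1 FPKM, while Dmp1, Phex, Omd, Pdpn and Bglap2 had means above it. The name bone matrix genes refers to the known roles of these proteins.

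Of the otoconia genes, 7 of 11 were tested, 4 with a difference above 0 (median 0.69), and 3 had an unadjusted p under 0.05. Sparcl1, a SPARC-like gene that lies on chromosome 5 at 104079111 to 104113733, upstream of the SIBLING members, had a log2 difference of 2.57 (SE 0.22, limma adjusted p 0.0872). Otog, which encodes otogelin, had 4.05 and 3.61 FPKM against 1.62 and 0.431. Slc26a4, the pendrin anion exchanger gene, went the other way at 1.93 and 0.884 against 60.5 and 46.3 (log2 difference -4.52, limma adjusted p 0.0665). Cyba, an oxidase subunit gene, had 200 and 159 against 158 and 76.5. The genes of 2 otoconial matrix proteins were named after their values were seen. Oc90, which encodes otoconin-90, reached 7.77 FPKM in vestibular 1 and at most 0.533 elsewhere. Otol1, which encodes otolin, went the other way, with 9.06 and 5.83 FPKM against 13.6 and 32.7 (log2 difference -1.42, unadjusted limma p 0.0507).

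**Figure D4:**
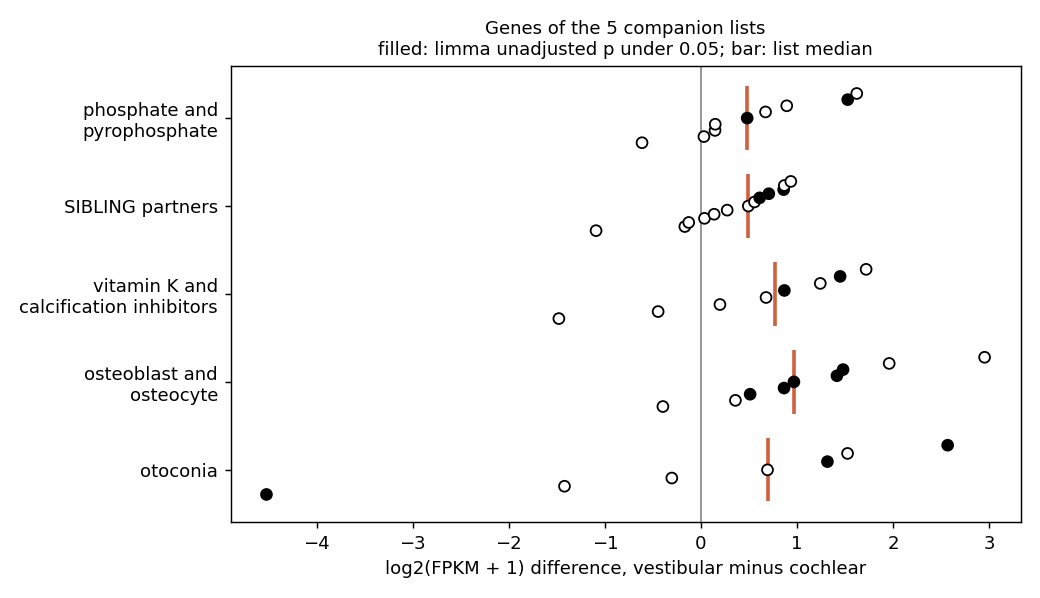
Log2(FPKM + 1) difference, vestibular minus cochlear, of each gene tested in the 5 lists, 1 point per gene, filled where limma's unadjusted p was under 0.05, with the list median as an orange bar. Of the 46 genes, 36 lie above 0, where 6788 of all 13200 genes tested do. Slc26a4 of the otoconia list lies farthest below at -4.52.

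Libraries differed in the markers of several cell types. The 12 macrophage markers summed to 8763 FPKM in vestibular 1, 6655 in vestibular 2, 6761 in cochlear 1 and 24.6 in cochlear 2. A difference above 0 was found for 12 of 12. The groups overlapped in 9 of the 12, as they did in 5899 of all 13200 genes tested. Limma gave 0 of the 12 an unadjusted p under 0.05. Lyz2, the lysozyme gene, was the highest of them, from 3902 to 5103 FPKM in the other libraries and 10.3 in cochlear 2. Spp1, which macrophages also express, stood at 4459 FPKM in cochlear 2, where these markers were lowest, and at 4095 in vestibular 1, where they were highest. The part of macrophages in the Spp1 difference between the groups was not tested. The 10 epithelial markers summed to 1035 and 105 FPKM in vestibular cultures, against 2009 and 2396 in cochlear ones. Their differences were below 0 in 10 of 10. The sums stood in the same library order as Alpl, but Cdh1 and Cldn4 did not. The steps were of unlike size. Alpl had 4.20 and 3.05 FPKM in vestibular cultures and was 8.02-fold higher in cochlear 2 than in cochlear 1. The part of epithelial cells in the Alpl difference was not tested.

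The 8 fibroblast markers summed to 2704 and 6213 FPKM in vestibular cultures, against 1372 and 964 in cochlear ones, with 8 of 8 differences above 0. The sums stood in the same library order as Phex. Col1a2, at 1140 and 3452 FPKM against 492 and 218, Col3a1 and Pdgfra also had that order. Pdgfrb, Dcn, Lum, Twist1 and Thy1 did not. Thy1, for example, had 340 and 205 FPKM against 134 and 112. The 11 chondrocyte markers summed to 770 and 4235 for the vestibular pair and to 222 and 221 for the cochlear pair; 6 were tested and 5 of these had a difference above 0. Most of the vestibular 2 sum came from collagen genes, with Col2a1 at 2365, Col9a3 at 663, Col9a1 at 621 and Col11a1 at 546 FPKM. Acan reached at most 7.52. Sox9 had a difference below 0, with 17.4 and 29.4 FPKM against 28.7 and 29.5. Among those not tested, Hapln1 and Matn3 reached at most 0.151 and 0.0373 FPKM. Comp, Matn1 and Col10a1 reached at most 0.849, 0.992 and 1.29. The sum was 5.50-fold higher in vestibular 2 than in vestibular 1. Phex was likewise 2.76-fold higher in vestibular 2, and Enpp1 was also higher there. Spp1, Dmp1, Mgp, Alpl and Smpd3 were lower in vestibular 2 than in vestibular 1. The part of either cell type in the differences of Dmp1, Phex and Smpd3 was not tested.

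The 10 osteoclast markers summed to between 43.0 and 133 FPKM over the 4 libraries, with the lowest sum in cochlear 2. Ctsk, which fibroblasts also express, made up most of each sum, and 5 of the 10 were tested, 4 with a difference above 0. The defining genes Calcr, Dcstamp and Ocstamp reached at most 0.0276, 0.171 and 0.0599 FPKM, and Mmp9 and Oscar at most 0.988 and 0.724. Other genes of the list were higher. Atp6v0d2 had 12.9 and 4.84 FPKM in vestibular cultures, against 22.6 and 0.0393 in cochlear ones. Acp5 ranged from 2.96 to 8.29, Tnfrsf11a from 0.581 to 5.52 and Nfatc1 from 5.30 to 7.85. The 6 Schwann cell markers summed to between 180 and 244, and the 6 endothelial markers to between 3.35 and 14.4, with Cldn5 listed at 0 in all and Pecam1 at most 0.155.

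**Figure D5:**
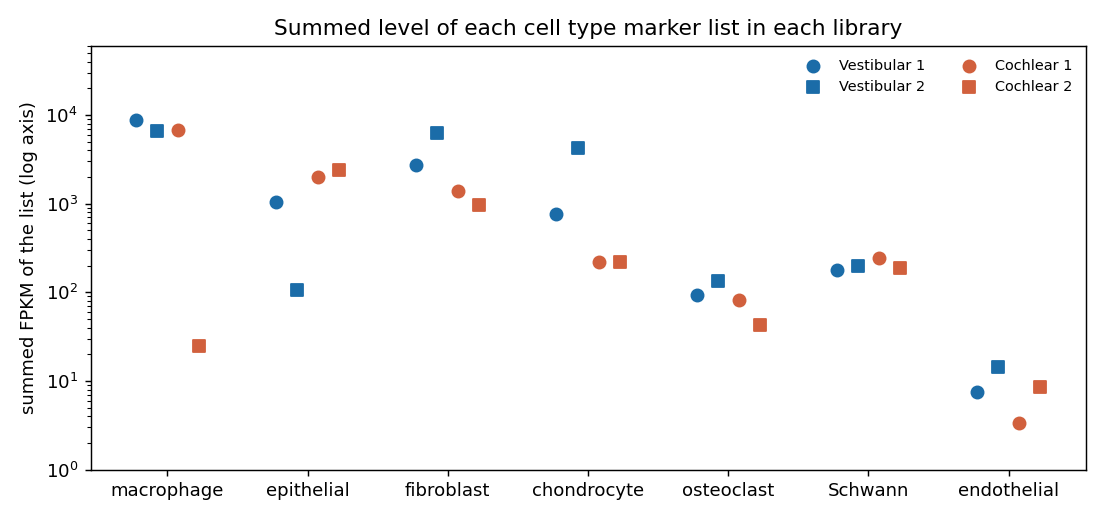
Summed FPKM of each list of cell type markers (log axis) in the 4 libraries, with circles for library 1 and squares for library 2 of each group (vestibular blue, cochlear orange). Cochlear 2 stands apart in the macrophage list at 24.6, and vestibular 2 in the epithelial list at 105 and the chondrocyte list at 4235.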

How the data were processed

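Per the labels' protocols, RNA was isolated with TRIzol, and sequencing libraries came from a stranded TruSeq kit for mRNA. The authors deposited 1 FPKM value per gene symbol and library, per the file headers. The submitters' processing notes name TopHat2 2.1.1, Bowtie2 2.2.8, SAMtools 0.1.18, Cuffdiff 2.2.1 and the mm10 build; for annotation, use of strand and scaling between libraries, the sources used here give nothing. FPKM depends on the transcript model, and fragment numbers are estimates.

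The 13200 genes with a mean of at least 1 FPKM were compared as log2(FPKM + 1) with limma 3.58.1 in R 4.3.3 (lmFit, eBayes with trend, 2-sided), with Benjamini-Hochberg adjustment over all of them and a threshold of 0.05. The fit was tested on simulated data. The members and all lists were chosen with earlier results of these data known. Listed genes were named by unadjusted p under 0.05 (at most 5 per list), then by mean FPKM up to 4, and where listed at 0 in all libraries. The values of 1 such gene of the osteoblast list are not reported here. Marker genes were named by level or where near 0. Of 10 members, 8 matched a RefSeq promoter. Positions and transcript lengths came from GENCODE release M21 on GRCm38. Alternatives changed the pseudocount, filter, scaling, trend, replicate block and libraries used.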

Additional observations from a re-analysis of the deposited data

How the results depend on the processing

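The 7 members tested kept their direction in all 70 refits (10 alternatives each), and none passed the threshold in any of them. Adjusted p ran from 0.101 to 0.567 for Dmp1 and from 0.118 to 0.562 for Alpl. In the fits that used all libraries, the number of members with an unadjusted limma p under 0.05 stayed between 2 and 3. Dmp1 and Smpd3 were among them in each such fit. Phex was not among them with no filter, with no mean-variance trend or with the replicate block. Over all genes, limma called 4; the count was 2 with no filter on low values, 0 with the replicate number as a block and 0 without any one library. Genes with an unadjusted p below 0.05 numbered 2398, and from 1027 (without cochlear 2) to 2731 (without vestibular 1) when a library was left out; fits with 3 libraries assume that the lone library varies like the other group. The causes were not tested. Whether a library number marks a shared preparation is not given in the sources used here. The differences of library 1 minus library 2 correlated at 0.0432 between the groups, across 13200 genes. This value cannot decide the question, since libraries of a group also differed in the markers of several cell types. With the replicate block, 2 members (Dmp1 and Smpd3) had an unadjusted p under 0.05, and Phex did not (0.0936). With no filter, Ibsp had a log2 difference of 1.13 (limma adjusted p 0.346), and Phex an unadjusted p of 0.0514. Leaving out 1 library moved the log2 difference of Spp1 between -0.91 and -0.26, and that of Mgp between 0.15 and 0.83. Bglap, with about 3 to 4 fragments in a library, is at the limit of this depth.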
